A study of Rattus norvegicus with 6 samples.

Results

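The basement membrane and cell adhesion genes of the rat testis were examined, namely the laminin chains, the integrin subunits, the nidogens, agrin, fibronectin and Sparc. They were taken by gene symbol, and 44 of the 35291 genes in the deposited table matched. Averaged over the 6 rats, 29 of the 44 reached 0.5 FPKM and could be tested, out of 20338 such genes in all. FPKM are fragments per kilobase of transcript, scaled to the size of the library, so that levels can be compared between genes per length. Perlecan (Hspg2), the laminin chain Lamb4 and the leukocyte integrin Itgam were not analysed here.

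The RNA-Seq libraries came from whole testes of Sprague-Dawley rats, an outbred strain, with 3 diabetic (DM) and 3 non-diabetic (ND) animals. DM rats had been fed a high-fat diet, had received 1 dose (35 mg/kg) of streptozotocin (STZ), a toxin of the insulin-producing cells, and were examined 8 weeks later. ND rats, labelled as normal, had received citrate buffer, and the study's methods do not say whether they had the diet too, so the label compares diabetic with normal rats and diet and STZ cannot be told apart. Markers of the tissue were present, with the 8 spermatid markers summing to between 11949 and 14191 FPKM in every rat, while neutrophil markers were nearly absent, at 1.5 FPKM in sum at most.

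The depth in reads is unknown, because FPKM are not counts. Relative depth, read from genes with less than 1 FPKM, was between 0.966 and 1.09 of the mean in DM rats and between 0.893 and 1.02 in ND rats, so the groups overlapped. In bulk tissue, fewer cells of a type and less RNA per cell cannot be told apart.

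Laminins are heterotrimers of an alpha, a beta and a gamma chain, and they form the polymer on which a basement membrane is built. Nidogens tie this polymer to the collagen IV network, and integrins are alpha-beta receptors through which cells hold on to it. In the testis a basement membrane surrounds each seminiferous tubule below the Sertoli cells and spermatogonia, and further laminin chains, the products of Lama3, Lamb3 and Lamc3, are known from the adhesion between Sertoli cells and elongating spermatids. A different set of integrins, those that pair with the Itgb2 or Itgb7 chain or contain the Itga4 chain, is typical of white blood cells.

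No gene of the group passed a test between DM and ND testes after adjustment for all genes, and of the few unadjusted calls, all of them laminin chains, that of Lama2 alone held when any 1 rat was left out. At an unadjusted p-value below 0.05 from limma, 3 of the 29 genes tested were lower in DM rats, Lama2, Lamb1 and Lamc3, and 0 were higher. Over all 20338 genes tested the same rule called 4.99% lower and 2.47% higher. No member reached an adjusted p-value below 0.05, which 0.0344% of all genes did, and the smallest adjusted p-value from limma among the members was 0.334. A change of 1 or more on the log2 scale together with such an unadjusted p-value was met by 0 of the 29 members tested and by 1.24% of all genes tested. These are the cutoffs of the study, which screened with DESeq2 and not with limma on FPKM. Fold changes here are differences of mean log2(FPKM + 0.1), DM minus ND, a scale that understates the change of low genes. The median log2 fold change was -0.097 over the 29 members and -0.021 over all genes tested, and 20 of the 29 lay below 0, against 55.6% of all genes. Separate ranges in DM and ND rats were seen for 5 members tested, Lama2, Lamb1, Lamb2, Itga11 and Itgal, all lower in DM rats, where 8.42% of all genes were lower and 4.56% higher without overlap. The smallest p-value that exact permutation of 3 against 3 rats allows for 1 gene is 0.1.

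**Figure D1:**
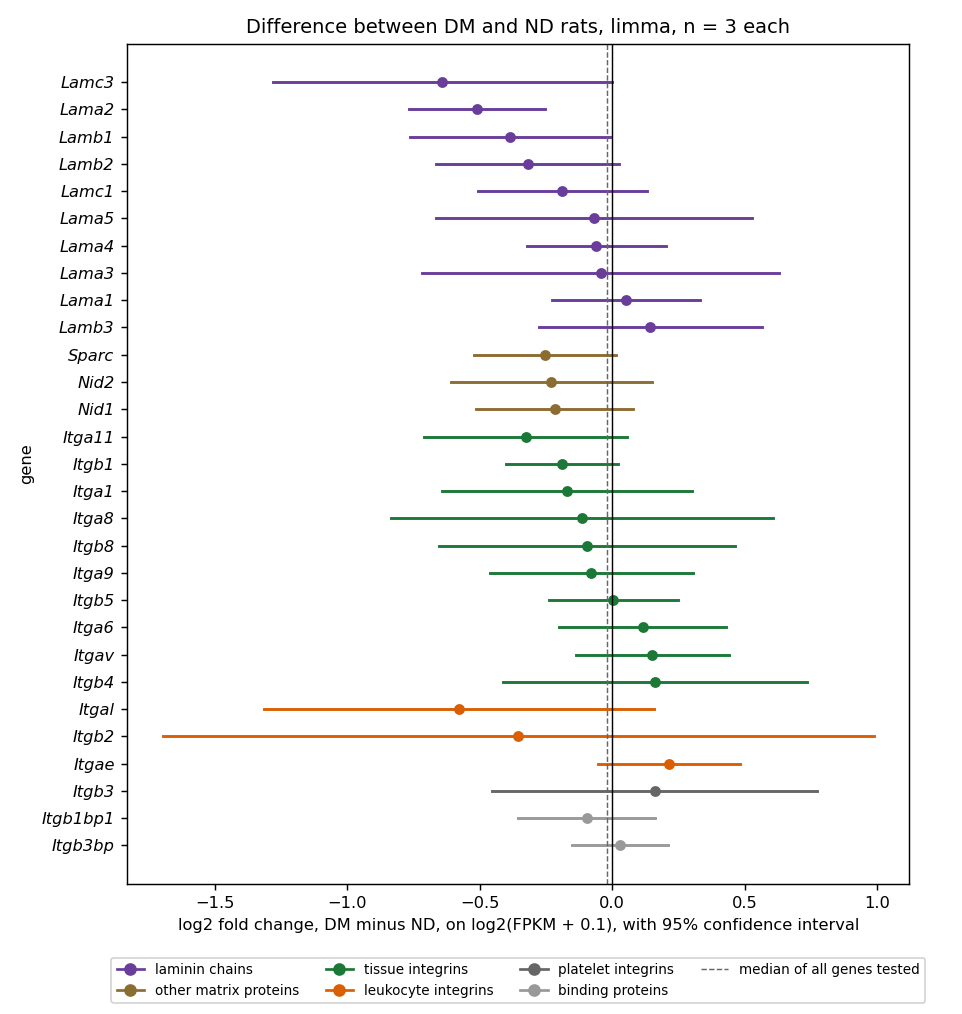
Log2 fold change of each of the 29 genes tested, DM minus ND, with its 95% confidence interval from limma (3 rats per group), coloured by class, with a dashed line at the median of all genes tested. The intervals of Lama2, Lamb1 and Lamc3 lie below 0, and those of the other 26 genes include 0.

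Lama2 encodes the laminin alpha chain best known from the basement membranes of muscle and nerve. It was at 2.94, 2.83 and 3.11 FPKM in the DM rats and at 4.16, 4.53 and 4.11 FPKM in the ND rats. Every DM rat was thus below every ND rat, with a gap wider than the range within either group. The means were 2.96 ± 0.138 and 4.27 ± 0.231 FPKM (SD, n = 3 each), so that DM rats had 0.701 times the ND level (log2 fold change -0.51, standard error 0.11). The unadjusted p-value of Lama2 from limma was 0.00209 and the adjusted one 0.334. It was the one member to stay below an unadjusted 0.05 in each of the 6 fits that left out 1 rat, where its log2 fold change ran from -0.55 to -0.47.

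Lamb1 encodes the beta chain found in most basement membranes. Its values were 2.0, 1.92 and 2.11 FPKM in the DM rats and 3.13, 2.67 and 2.24 FPKM in the ND rats. The DM rats lay close together below the lowest ND rat, ND rat 3. On the log2 scale Lamb1 differed by -0.39 (standard error 0.16, unadjusted p = 0.0459, adjusted p = 0.665 from limma). Lamc3, a gamma chain of restricted distribution, was at 1.12, 1.5 and 1.38 FPKM in the DM rats and at 2.53, 2.69 and 1.4 FPKM in the ND rats. Here ND rat 3 fell within the DM range while the other two ND rats stood well above it. For Lamc3 the log2 fold change was -0.64 (standard error 0.27, unadjusted p = 0.0493, adjusted p = 0.667 from limma). Both calls were lost in 5 of the 6 fits that left out 1 rat, that is without any rat other than ND rat 3. In these fits Lamb1 ran from -0.50 to -0.27 and Lamc3 from -0.93 to -0.48. Median-ratio scaling and the fit without a filter also took both above 0.05, to 0.0575 and 0.0524 for Lamb1 and to 0.0539 and 0.0558 for Lamc3. Lamc3 was also above it from 1 FPKM upward, at 0.0530, and with eBayes without the trend, at 0.0547.

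The gene starts of Lama2 and Lamc3 are shown because these members had the lowest p-value and the largest log2 fold change. The sequences are the bases before the start of the gene in RefSeq (assembly GRCr8), 230 for Lama2 at chr1:19491896-19492125 and 250 for Lamc3 at chr3:35562739-35562988, both on the plus strand. Capitals mark a GC box (GGGCGG on either strand) or a CCAAT box (CCAAT on either strand), which do not overlap each other.
Lama2: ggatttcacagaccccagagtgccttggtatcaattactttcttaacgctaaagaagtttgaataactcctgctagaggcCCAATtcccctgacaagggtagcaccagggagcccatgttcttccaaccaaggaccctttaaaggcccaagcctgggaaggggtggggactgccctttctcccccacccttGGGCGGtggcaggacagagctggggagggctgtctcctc
Lamc3: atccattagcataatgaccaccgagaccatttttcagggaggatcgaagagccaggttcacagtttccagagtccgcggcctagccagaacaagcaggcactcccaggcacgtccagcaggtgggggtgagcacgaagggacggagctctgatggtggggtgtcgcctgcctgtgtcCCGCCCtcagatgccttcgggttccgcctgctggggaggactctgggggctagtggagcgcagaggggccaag
Both windows held 1 GC box, and that of Lama2 also held 1 CCAAT box. Among all 33469 promoters of the table, the GC box was in 28.4% and the CCAAT box in 32.2% of windows as long as that of Lama2, and the GC box was in 30.5% at the length used for Lamc3. The TATA box (TATAAA on either strand) was in neither. The deposited table gives no coordinates, so these starts were not checked against the transcripts that were counted.

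The other laminin chains differed less. Lamb2, the beta chain of muscle and kidney basement membranes, was at 2.78, 2.68 and 2.30 FPKM in the DM rats and at 2.92, 3.74 and 3.13 FPKM in the ND rats. Its groups did not overlap, but the log2 fold change of -0.32 had a 95% confidence interval from -0.67 to 0.026 (unadjusted p = 0.0653, adjusted p = 0.704 from limma), and the unadjusted p-value was 0.0496 with eBayes without the trend alone. Lamc1, the gamma chain of most laminins, was at 2.84, 2.83 and 2.90 FPKM in the DM rats and at 3.23, 3.76 and 2.87 FPKM in the ND rats, with ND rat 3 again inside the DM range. The interval of its log2 fold change ran from -0.51 to 0.13. Lama1, the alpha chain of early basement membranes, had a log2 fold change of 0.051 (95% confidence interval -0.23 to 0.33) and Lama4, the vascular and interstitial alpha chain, one of -0.060 (-0.32 to 0.20). Lama1 and Lama4 were the most abundant chains, at 5.07 and 5.26 FPKM as means of the 6 rats. Lamb3 was at 2.66 ± 0.412 FPKM in DM and 2.40 ± 0.383 FPKM in ND rats (SD, n = 3 each). Lama5 and Lama3 were low, with means of 0.745 and 0.555 FPKM over the 6 rats, and overlapping groups. Of the 3 chains known from the Sertoli-spermatid adhesion, Lamc3 was thus among the lower genes while Lama3 and Lamb3 were not called.

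**Figure D2:**
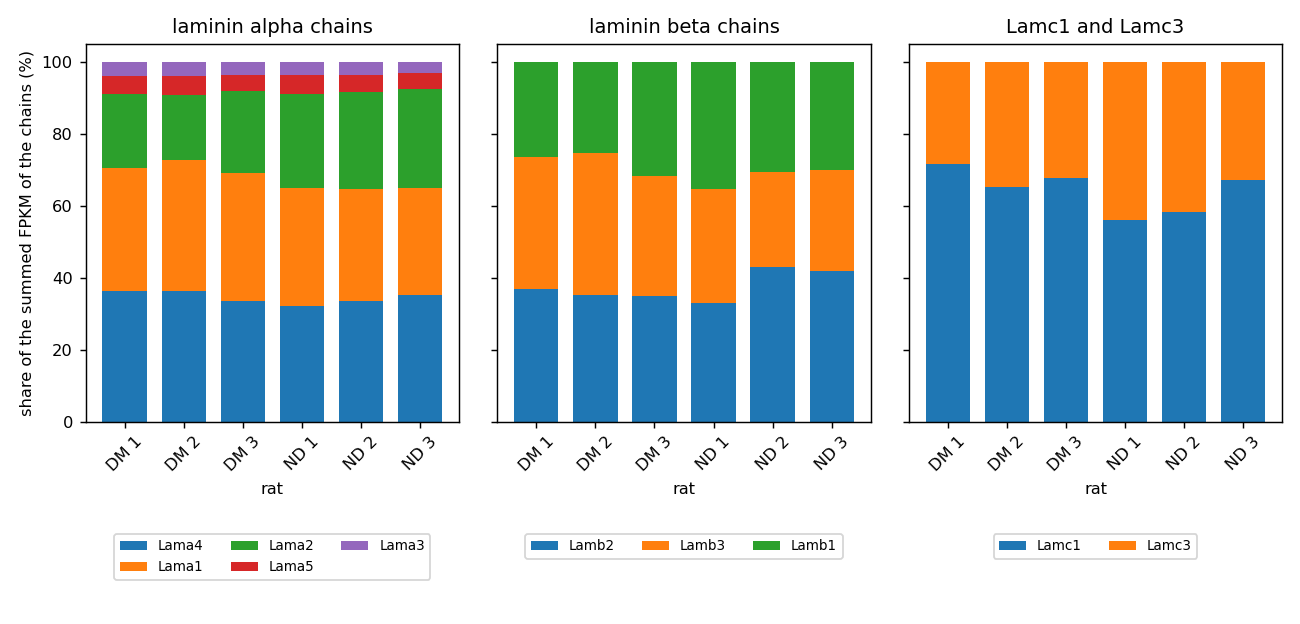
Share of each chain in the summed FPKM of the laminin alpha chains, of the beta chains, and of Lamc1 with Lamc3, in percent, 1 bar per rat. Lama2 takes 18.1% to 22.7% of the alpha chains in DM rats and 26.1% to 27.5% in ND rats, and Lamc3 of ND rat 3 sits among the DM rats.

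Within each rat the shares of Lama2 and Lama1 among the alpha chains did not overlap between the groups, while those of Lama4, Lama5 and Lama3 did. Shares sum to the whole, so a lower Lama2 share raises the other shares. Lama1 itself had a log2 fold change of 0.051. Lama2 made up 20.6%, 18.1% and 22.7% of the summed alpha chain FPKM in the DM rats and 26.1%, 26.8% and 27.5% in the ND rats. Lama1 made up 34.2%, 36.5% and 35.5% in the DM rats and 32.7%, 31.2% and 29.7% in the ND rats. The Lama1 to Lama2 ratio was 1.75 ± 0.241 in DM and 1.17 ± 0.0855 in ND rats (SD, n = 3 each), without overlap. The Lamb3 to Lamb1 ratio was likewise higher in each DM rat, from 1.05 to 1.57, than in any ND rat, from 0.855 to 0.930. These ratios do not depend on the scaling between libraries, but they were picked after the values were seen and are given without a test.

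Among the other matrix genes, Sparc, a collagen-binding matrix protein, had the highest level of all members, at 28.3 FPKM over the 6 rats. It was at 25.7, 23.1 and 28.6 FPKM in the DM rats and at 30.2, 34.9 and 27.5 FPKM in the ND rats, so that DM rat 3 and ND rat 3 crossed. Its log2 fold change was -0.26 (unadjusted p = 0.0588, adjusted p = 0.688 from limma), and the unadjusted p-value was 0.0302 without DM replicate 3, 0.0264 without ND replicate 3 and 0.0956 to 0.188 without any other rat. With TPM scaling it was 0.0419. Nid1 and Nid2 encode the nidogens. Nid1 was at 10.1, 8.60 and 10.0 FPKM in the DM rats and at 12.1, 12.1 and 9.37 FPKM in the ND rats, and Nid2 was at 4.91, 5.16 and 4.36 FPKM against 7.12, 5.24 and 4.82 FPKM. For both, ND rat 3 lay inside the DM range. Their log2 fold changes were -0.22 and -0.23, with 95% confidence intervals from -0.51 to 0.079 and from -0.61 to 0.15, and that of Nid1 had an unadjusted p-value of 0.0160 without ND replicate 3 and of 0.131 to 0.331 without any other rat. The Nid1 to Nid2 ratio was 2.0 ± 0.316 in DM and 1.98 ± 0.306 in ND rats (SD, n = 3 each).

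Fibronectin (Fn1), the matrix ligand of many integrins, and agrin (Agrn), a heparan sulfate proteoglycan, were low. Fn1 was at 0.288, 0.266 and 0.451 FPKM in the DM rats and at 0.463, 0.544 and 0.440 FPKM in the ND rats, where DM rat 3 reached the ND range. Agrn was at 0.335, 0.452 and 0.357 FPKM against 0.488, 0.623 and 0.519 FPKM, without overlap. Both means were under 0.5 FPKM, and in the fit without a filter their unadjusted p-values from limma were 0.173 for Fn1 and 0.157 for Agrn.

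**Figure D3:**
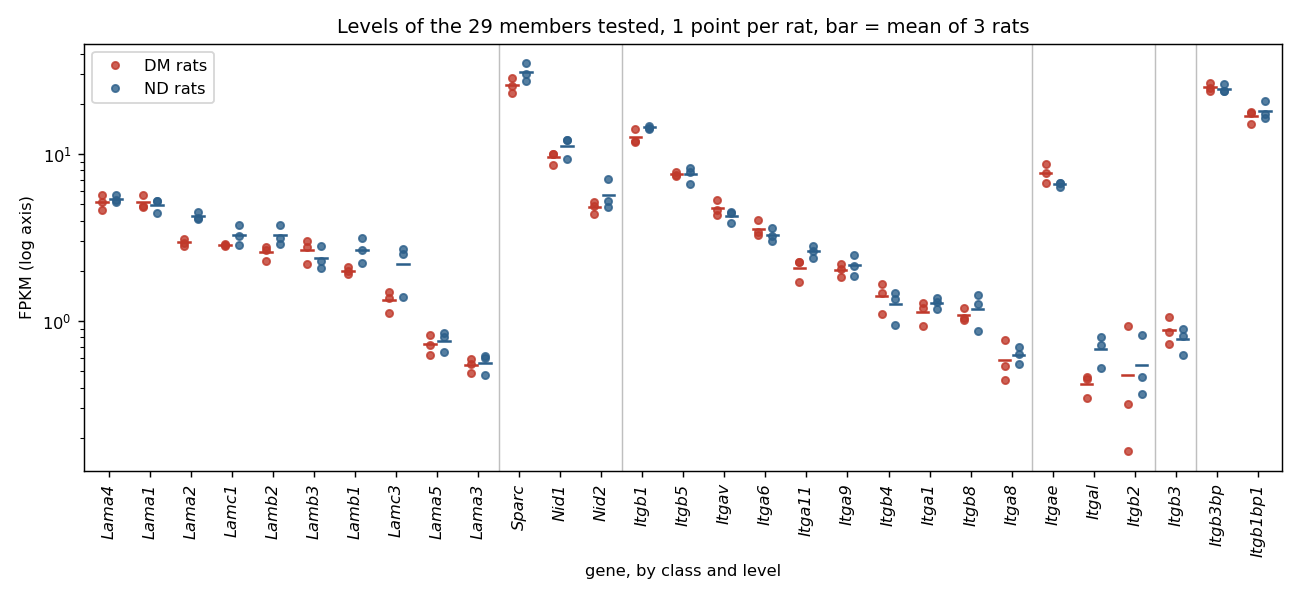
FPKM of the 29 genes tested in each rat on a log axis, ordered by class and level, with DM rats on the left of each pair and a bar at the mean of 3 rats. Sparc, Itgb3bp and Itgb1bp1 stand highest, Itgae stands apart from Itgal and Itgb2, and the groups separate for Lama2.

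The integrins of the tubule wall, epithelium and other tissue cells that were tested gave no call. Of 16 such subunits, 10 were tested, 0 had an unadjusted p-value below 0.05, and their median log2 fold change was -0.087. Over all genes tested, 4.99% were lower and 2.47% higher at that threshold. With 10 genes, 0 calls cannot be told apart from these shares. Itgb1, the beta chain shared by most matrix receptors, was the most abundant integrin, at 11.9, 12 and 14.2 FPKM in the DM rats and at 14.4, 14.8 and 14.2 FPKM in the ND rats. DM rats 1 and 2 were below all ND rats, and DM rat 3 passed the lowest of them. The log2 fold change of Itgb1 was -0.19 (95% confidence interval -0.40 to 0.022, unadjusted p = 0.0720, adjusted p = 0.713 from limma), and the unadjusted p-value was 0.0102 without DM replicate 3 and 0.103 to 0.199 without any other rat. Itgb5, a beta chain that pairs with the Itgav product, followed at 7.57 ± 0.215 FPKM in DM and 7.57 ± 0.832 FPKM in ND rats (SD, n = 3 each). Itgb1 took between 50.8% and 57.7% of the summed FPKM of the beta chains in every rat and Itgb5 between 27.0% and 32.3%.

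Of the laminin-binding alpha chains, Itga6 was the one well above the limit, at 3.57 ± 0.411 FPKM in DM and 3.28 ± 0.298 FPKM in ND rats (SD, n = 3 each). Its log2 fold change was 0.12 with a 95% confidence interval from -0.20 to 0.43. Itgav, the alpha chain that binds fibronectin and vitronectin, was at 4.31, 4.65 and 5.33 FPKM in the DM rats and at 3.88, 4.50 and 4.44 FPKM in the ND rats, with overlap. Taken as a ratio to Itgb1 within each rat, Itgav was at 0.375 ± 0.0132 in DM and 0.296 ± 0.0229 in ND rats (SD, n = 3 each), and Itga6 at 0.281 ± 0.00572 and 0.227 ± 0.0155. Neither ratio overlapped between the groups, and both were picked after the values were seen.

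The collagen-binding alpha chain Itga11, known from fibroblasts, was at 2.26, 1.71 and 2.27 FPKM in the DM rats and at 2.40, 2.82 and 2.64 FPKM in the ND rats, all ND rats above all DM rats. Its log2 fold change was -0.33 (95% confidence interval -0.71 to 0.057, unadjusted p = 0.0840, adjusted p = 0.736 from limma). Itga1, a second collagen receptor chain, had overlapping groups around 1.21 FPKM. The small gene Pelo lies within the span of Itga1 in RefSeq and was listed between 31.6 and 38.9 FPKM, and its part in the values of Itga1 was not tested. A protein-coding gene overlaps 7 members in RefSeq, among them also Itga4, Itgb7 and Itgb3bp, where its part was not tested either. Itga9, Itgb4, Itgb8 and Itga8 had means over the 6 rats of 2.10, 1.34, 1.14 and 0.608 FPKM and log2 fold changes between -0.11 and 0.16, with overlapping groups. Itga5, the classical fibronectin receptor chain, was at 0.326 FPKM over the 6 rats, and Itgb6, an epithelial chain, was listed at 0 in 4 rats.

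The leukocyte integrins that were tested gave no call either, and levels differed widely over the whole class. Of 7 in the table, 3 were tested, 0 had an unadjusted p-value below 0.05, and the remaining 4 were below 0.5 FPKM. Over all genes tested, 4.99% were lower and 2.47% higher at that threshold, from which 0 of 3 cannot be told apart. Lower without overlap were 8.42% of all genes tested. Itgal, the alpha chain of the main T cell and monocyte adhesion receptor, was at 0.462, 0.452 and 0.345 FPKM in the DM rats and at 0.799, 0.720 and 0.523 FPKM in the ND rats, without overlap. Its log2 fold change of -0.58 had a 95% confidence interval from -1.31 to 0.16 (unadjusted p = 0.106, adjusted p = 0.760 from limma). The unadjusted p-value of Itgal was 0.0174 with eBayes without the trend, and at least 0.0745 under every other alternative. Itgb2, the beta chain that pairs with it, was at 0.319, 0.166 and 0.937 FPKM in the DM rats and at 0.369, 0.460 and 0.821 FPKM in the ND rats. The highest and the lowest value of Itgb2 both came from DM rats, and the interval of its log2 fold change, -1.70 to 0.99, leaves a wide range.

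Itga4, the alpha chain of lymphocyte and monocyte adhesion to Vcam1, was at 0.162, 0.105 and 0.0917 FPKM in the DM rats and at 0.310, 0.408 and 0.227 FPKM in the ND rats. Itgad, a macrophage alpha chain, was at 0.0479, 0.0299 and 0.0459 FPKM against 0.0944, 0.178 and 0.173 FPKM. For both genes every DM rat was below every ND rat, as for 5.57% of all genes below 0.5 FPKM with any value. In the fit without a filter, limma gave unadjusted p-values of 0.0198 for Itga4 and 0.0187 for Itgad, and adjusted ones of 0.643 and 0.632. Itgax, a dendritic cell and macrophage chain, was at 0.181, 0.0660 and 0.0467 FPKM in the DM rats and at 0.0849, 0.220 and 0.357 FPKM in the ND rats. Itgb7, a lymphocyte beta chain, was at 0.0675, 0.0657 and 0.0657 FPKM against 0.0412, 0.146 and 0.0951 FPKM. The groups overlapped for Itgax and Itgb7.

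Several markers of white blood cells were called in the same comparison, not all in 1 direction. Of the 16 macrophage and other leukocyte markers fixed in a list, 15 were tested, 8 were lower in DM rats at an unadjusted p-value below 0.05 and 0 were higher, where all genes gave 4.99% and 2.47%, and the median over the 15 was -0.82. Their summed level, most of it Aif1 at 96.2 FPKM over the 6 rats, was 144 to 154 FPKM in DM and 129 to 180 FPKM in ND rats. Csf1r, the receptor that defines macrophages, had a log2 fold change of -0.80 and Laptm5 one of -1.24. Other macrophage markers were not called, with -0.064 for Mrc1, -0.13 for Adgre1, -0.23 for Cd163 and 0.29 for Aif1. Of the 6 T cell markers 5 were tested, of which Cd8a was lower (log2 fold change -0.43, unadjusted p = 0.0435, adjusted p = 0.661 from limma) and Lck, a kinase of T cell signalling, was higher. Vcam1, the endothelial and stromal ligand of the Itga4 receptor, was at 3.05, 1.23 and 3.98 FPKM in the DM rats and at 6.58, 8.01 and 6.84 FPKM in the ND rats, without overlap (log2 fold change -1.49, unadjusted p = 0.00568, adjusted p = 0.436 from limma). The part of these markers in the values of Itgal, Itga4 and Itgad was not tested.

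Itgae differed from the other leukocyte integrins in level. It encodes the alpha chain by which T cells in epithelia bind E-cadherin, and its beta chain is the Itgb7 product. Itgae was at 6.71, 7.75 and 8.78 FPKM in the DM rats and at 6.71, 6.39 and 6.76 FPKM in the ND rats, DM rats 2 and 3 above the ND range and DM rat 1 within it. Its log2 fold change was 0.22 (95% confidence interval -0.053 to 0.48, unadjusted p = 0.0998, adjusted p = 0.758 from limma), and the unadjusted p-value was 0.0247 without DM replicate 1 and 0.137 to 0.298 without any other rat. In each rat Itgae exceeded Itgb7 by 43.6 to 163 times and made up most of the summed FPKM of the 7 leukocyte integrins, which was 7.95 to 10.3 FPKM in DM and 8.41 to 8.95 FPKM in ND rats. Among the T cell markers, Cd3e, Cd3g, Cd3d and Cd8a were at 0.639, 0.614, 0.875 and 1.24 FPKM over the 6 rats. Lck stood apart from them at 5.21, 7.18 and 8.00 FPKM in the DM rats and 3.51, 2.73 and 2.58 FPKM in the ND rats, every DM rat above every ND rat (log2 fold change 1.17, unadjusted p = 0.000443, adjusted p = 0.190 from limma). The part of these markers in the values of Itgae was not tested.

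Haspin, a histone kinase with high levels in male germ cells, lies within the span of Itgae on the opposite strand in RefSeq (assembly GRCr8). It is listed in the deposited table under its older symbol Gsg2, at 195, 189.7 and 190.3 FPKM in the DM rats and at 186, 185.5 and 186.2 FPKM in the ND rats, between 21.7 and 29 times the value of Itgae. Whether the counting used strand is not given in the sources used here, so reads of the gene pair cannot be told apart where the genes overlap. The gene starts are shown to set the internal start of Haspin beside that of Itgae. Itgae is read from the plus strand at chr10:58203118-58203330 and Haspin from the minus strand at chr10:58249032-58249281 (RefSeq, GRCr8), with a GC box in capitals.
Itgae: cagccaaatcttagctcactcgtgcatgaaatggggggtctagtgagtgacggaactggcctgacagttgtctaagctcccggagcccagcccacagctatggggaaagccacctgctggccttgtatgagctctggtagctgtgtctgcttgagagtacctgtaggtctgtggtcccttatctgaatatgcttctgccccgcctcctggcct
Haspin: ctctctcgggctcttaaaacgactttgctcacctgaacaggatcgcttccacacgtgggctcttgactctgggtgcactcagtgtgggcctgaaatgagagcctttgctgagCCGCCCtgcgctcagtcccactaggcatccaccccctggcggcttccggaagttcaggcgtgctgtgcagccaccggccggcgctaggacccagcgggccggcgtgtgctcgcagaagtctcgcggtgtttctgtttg
The 213 bases before Itgae held no GC box, CCAAT box or TATA box in these spellings, and the 250 bases before Haspin held 1 GC box, as did 30.5% of all promoters of that length.

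**Figure D4:**
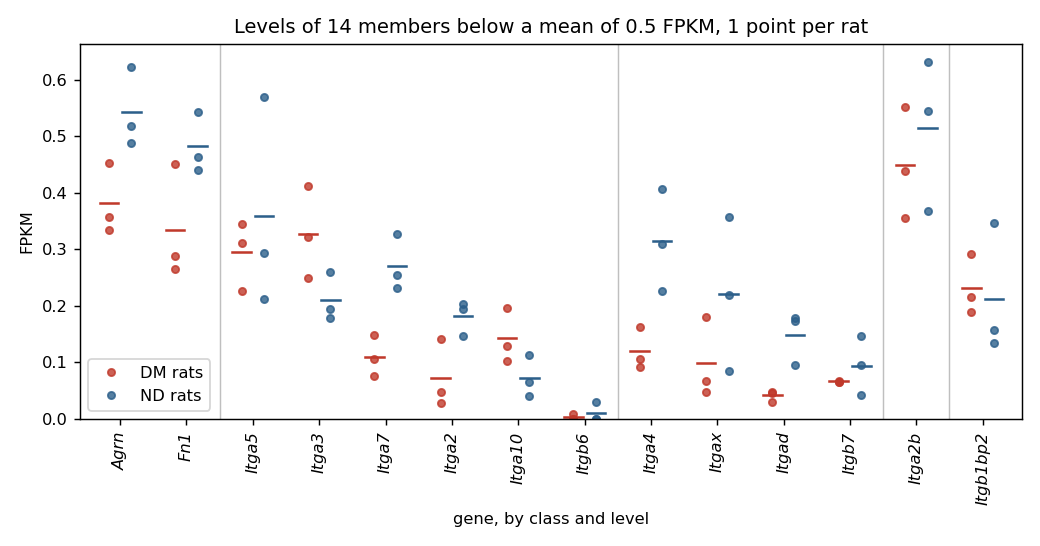
FPKM of 14 of the 15 members with a mean below 0.5 FPKM in each rat, by class and level, with DM rats on the left of each pair and a bar at the mean of 3 rats. Agrn, Itga7, Itga2, Itga4 and Itgad have every DM rat below every ND rat.

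Among the 15 members too low to be tested, the DM mean was the lower one for 12, as it was for 54.8% of all genes below 0.5 FPKM with any value. Without overlap between the groups were 5 of the 15, all lower in DM rats, where 5.57% of all genes below 0.5 FPKM with any value were lower and 2.97% higher without overlap. Besides Agrn, Itga4 and Itgad these were Itga7 and Itga2. Itga7, the laminin-binding chain of muscle, was at 0.148, 0.105 and 0.0750 FPKM in the DM rats and at 0.326, 0.254 and 0.232 FPKM in the ND rats. Itga2, a collagen-binding chain of platelets and epithelia, was at 0.0472, 0.140 and 0.0273 FPKM against 0.203, 0.146 and 0.194 FPKM. In the fit of all 30782 genes with any value, 4 members were lower at an unadjusted p-value below 0.05, Lama2, Itga4, Itga7 and Itgad, against 4.34% of all genes. Their adjusted p-values from limma were not below 0.05. Itga3 and Itga10 were among the 3 low members with the higher mean in DM rats, at 0.328 against 0.211 FPKM and 0.143 against 0.0725 FPKM, both with overlap. At these levels a difference of a few fragments can move a value, which the files do not let one count.

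The platelet integrin chains Itgb3 and Itga2b overlapped between groups, at 0.882 ± 0.165 against 0.778 ± 0.138 FPKM and at 0.449 ± 0.0982 against 0.515 ± 0.134 FPKM (SD, n = 3 each). The symbol rule also took 3 genes that are not integrin subunits. Itgb1bp1, whose product binds the Itgb1 tail, was at 16.9 ± 1.47 FPKM in DM and 18.2 ± 2.26 FPKM in ND rats, and Itgb3bp, a centromere protein despite its name, at 25.1 ± 1.54 and 24.6 ± 1.5 FPKM (SD, n = 3 each). Itgb1bp2, a muscle protein, was at 0.222 FPKM over the 6 rats. Without these 3 genes the median log2 fold change was -0.11 over the 27 members tested.

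Ordered by level over the 6 rats, the members tested ran from Sparc through Itgb3bp at 24.9, Itgb1bp1 at 17.6, Itgb1 at 13.6 and Nid1 at 10.4 FPKM down to Itgal at 0.550 and Itgb2 at 0.512 FPKM. The ranges over the rats failed to overlap for only 3 of the 28 neighbouring pairs, below Itgb3bp, below Itgb1bp1 and below Nid1, and overlapped for the others. Within every rat the higher gene of a pair was also the higher one for 5 pairs, these 3, Itgb1 above Nid1 and Lama5 above Itga8. The median level was 2.92 FPKM over the 29 members and 4.6 FPKM over all genes tested.

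The rats of a group were not alike in these genes. ND rat 3 was the ND animal nearest to the DM rats, with a median of -0.13 over the 10 laminin chains tested, taken as log2 difference from the mean of the 6 rats, against 0.13 and 0.17 in ND rats 1 and 2. The DM rats had medians of -0.052, -0.0093 and -0.18. Without ND replicate 3, 5 members were lower at an unadjusted p-value below 0.05, Lama2, Lamb1, Lamc3, Nid1 and Sparc, and without ND replicate 1, ND replicate 2, DM replicate 1 or DM replicate 2 it was Lama2 alone. Peritubular myoid markers had medians of 0.14, 0.14 and -0.018 in ND rats 1, 2 and 3 on the same scale, and between -0.13 and -0.0050 in the DM rats. Of these 7 markers 0 were called. The 12 Sertoli markers had a median log2 fold change of 0.051 and 0 calls. Per rat their medians were 0.060, 0.017 and -0.13 in ND rats 1, 2 and 3, and between 0.011 and 0.076 in the DM rats. The fibroblast markers, 5 of the 6 listed, summed to 11.1 to 12.6 FPKM in DM and 17.9 to 25.7 FPKM in ND rats, and 4 of them were lower at an unadjusted p-value below 0.05. The Leydig markers tested had 6 of 7 lower at that threshold, and Cyp17a1 had an adjusted p-value of 0.0415 from limma. Beside the fibroblast and Leydig counts, the share of all genes called lower was 4.99%. The part of these markers in the laminin values was not tested.

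Other genes of the same structures were counted from lists. Among other basement membrane and matrix genes, 11 of the 21 tested were lower in DM rats at an unadjusted p-value below 0.05 and 1 was higher. The shares over all genes were 4.99% lower and 2.47% higher. Ntn4, a netrin related to laminins, was the higher gene. It was at 3.72, 3.66 and 3.30 FPKM in the DM rats and at 3.36, 2.32 and 1.82 FPKM in the ND rats, with overlap. The median over the 21 was -0.52. Col4a1, a chain of the collagen IV network, was at 3.76, 2.64 and 3.19 FPKM in the DM rats and at 5.60, 4.83 and 4.42 FPKM in the ND rats (log2 fold change -0.62, adjusted p = 0.438 from limma). Bgn, the small proteoglycan biglycan, was at 5.60, 4.57 and 7.17 FPKM against 10.4, 10.8 and 9.73 FPKM (log2 fold change -0.85, adjusted p = 0.276 from limma). For both genes every DM rat was below every ND rat, as for 13 of the 21 in all, against 8.42% of all genes. For 1 of the 21, a gene other than Ntn4 that was not called, every DM rat was above every ND rat, against 4.56% of all genes. Besides Col4a1 and Bgn, the lower genes without overlap that were also called were Col4a2, Col4a4, Col4a5, Col18a1, Fbln5, Smoc1, Egflam, Ecm1 and Dcn. Dcn is also counted among the fibroblast markers. None of the 21 had an adjusted p-value below 0.05.

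The intracellular partners of the integrins gave 1 call. Of 31 focal adhesion and integrin activation genes tested, Flna, an actin crosslinker that binds beta chain tails, was lower at an unadjusted p-value below 0.05 and 0 were higher, a share no greater than the 4.99% over all genes. The median over the 31 was -0.077. Flna was at 7.98, 7.17 and 7.5 FPKM in the DM rats and at 9.46, 9.92 and 8.00 FPKM in the ND rats, just short of overlap. Of 9 other receptors of basement membrane proteins tested, Sdc3, a syndecan, and Ddr2, a collagen receptor, were lower at that threshold. Their log2 fold changes were -0.82 and -0.67. Of 7 leukocyte integrin ligands tested, Vcam1 was lower and Jam3, a junction protein of Sertoli cells and spermatids, higher with a log2 fold change of 0.17. Of 7 other integrin ligands tested, 2 were lower and 0 higher. Beside the counts of receptors and ligands, all genes gave 4.99% lower and 2.47% higher. No gene of these 4 lists had an adjusted p-value below 0.05.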

How the data were processed

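Testis RNA-Seq of 3 DM and 3 ND rats was used, grouped by the condition in the labels. The authors checked reads with FastQC, compared them with rRNA using BWA, aligned with STAR and used StringTie to assemble transcripts. Gene-level FPKM, calculated by the authors, are the deposited values. Tool versions and the genome build are not given in the sources used here. The authors screened with DESeq2, which needs counts.

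Here log2(FPKM + 0.1) was fitted with limma 3.58.1 in R 4.3.3 (eBayes with a mean-variance trend, two-sided, Benjamini-Hochberg over all genes), for genes averaging 0.5 FPKM or more. The fit was tested on simulated data, with changes larger than any member tested had and the same spread for every gene. That simulation does not cover changes as small as those of the members. The fit was repeated with pseudocounts 0.01 and 1, unfiltered, from 1 FPKM upward, with median-ratio or TPM scaling, eBayes without the trend, a replicate block and leaving out each rat. Nothing says the rats shared litters or batches. The p-values from limma set the difference between DM and ND against the spread among these 6 animals within groups, moderated over all genes. Members and gene lists were chosen with earlier results of these data known. All members are counted, 1 of those below 0.5 FPKM is not reported here, every member tested is named, and other genes are named from the lists where groups did not overlap and the unadjusted p-value was below 0.05, or beside a member. Ntn4, Aif1, Mrc1, Adgre1, Cd163, Cd3d, Cd3e, Cd3g, Pelo and Haspin were named after their values were seen. One list symbol, Gp1bb, labels more than 1 gene, and the first was used. RefSeq entries (GRCr8) matched all 44 members by symbol, and promoters 33.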

Additional observations from a re-analysis of the deposited data

How the results depend on the processing

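The count of 3 members lower at an unadjusted p-value below 0.05 was 1 with median-ratio scaling and 1 in the fit that took replicate numbers as a block, Lama2 in both, where the block gave unadjusted p-values of 0.0718 for Lamb1 and 0.0549 for Lamc3. It ranged from 1 to 5 over the 6 fits that each left out 1 rat, and 2 to 4 under the other alternatives. The members counted were not always the same, being Lama2, Sparc and Itgb1 without DM replicate 3, Lama2, Lamb1, Lamb2 and Itgal with eBayes without the trend, Lama2, Itga4, Itga7 and Itgad without a filter, and Lama2 and Lamb1 from 1 FPKM upward. The count of higher members was 0, and 0 to 1 over these 6 fits, where the 1 was Itgae. The causes were not tested. The replicate numbers do not mark shared animals, and deviations of same-numbered rats correlated at 0.11, 0.015 and 0.098, so the block shares only a number.

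The median log2 fold change of the members ranged from -0.16 to -0.068 over the fits that left out 1 rat, and no alternative turned its direction. It was -0.068 with median-ratio scaling, which moved the median of all genes from -0.021 to 0.0080. No alternative gave a member an adjusted p-value below 0.05 or passed the criterion of 1 on the log2 scale. Members below 0.5 FPKM entered mainly through the unfiltered fit at a pseudocount of 0.1, which understates their change. There Itgad, at means of 0.0412 FPKM in DM and 0.148 FPKM in ND rats, had a log2 fold change of -0.80. Itga10, at means of 0.143 FPKM in DM and 0.0725 FPKM in ND rats, had 0.50. Leaving out the 3 binding proteins was chosen after seeing the data.

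Signs changed only where 1 rat was left out, in genes that had no unadjusted p-value below 0.05. Over these fits the log2 fold change ran for Lama4 from -0.13 to 0.019, Itgb2 from -0.56 to 0.081 (in the 4 fits where it reached 0.5 FPKM), Itgb5 from -0.087 to 0.067, Itgb4 from -0.015 to 0.32, Itgb8 from -0.29 to 0.043, Itgb3bp from -0.018 to 0.078, Lama3 from -0.14 to 0.020, Itga8 from -0.30 to 0.038, Lama1 from -0.027 to 0.093, Itga9 from -0.17 to 0.021 and Lama5 from -0.17 to 0.021.

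Depth in reads is unknown, so the counting error of genes below 0.5 FPKM cannot be given.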
